A study of Homo sapiens with 9 samples.

Results

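Transcripts of nuclear genes for mitochondrial respiration, the mitochondrial ribosome and mitochondrial transport were examined for RNA editing left by a pair of splicing-associated proteins, GPATCH8 and SUGP1. The genes were chosen by symbol among protein-coding entries. A symbol had to start with NDUF, COX, ATP5, UQCR, SDH, MRPL, MRPS, TIMM, TOMM or SLC25, or be CYC1, POLG2 or SPG7. This rule found 35 genes among the 1513 genes listed for either protein, 15 of 565 with GPATCH8 and 27 of 1110 with SUGP1. No measured value entered the rule, but the members were proposed with these data known.

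The cells were 293T, derived from human embryonic kidney, and each protein was joined to a deaminase catalytic domain, from a hyperactive Drosophila enzyme, called ADAR. In this method, TRIBE-seq, the attached enzyme turns adenosine into inosine near RNA that the protein contacts, and sequencing reads the inosine as guanosine. There were 2 libraries of GPATCH8-ADAR and 2 of its non-targeting control fusion in sequencing run 1. Run 2 held 2 libraries of ADAR-SUGP1, 2 of its control fusion and 1 of untransfected cells. All cells carried wild-type SF3B1 according to their descriptions, and transfected cells were sorted for GFP 24 h after plasmid transfection, so fusion levels are those of transient overexpression. Paired reads of 100 bases were sequenced; the labels give 1 range of depth for all libraries, from which the depth behind a site cannot be read. The deposited tables hold a single count of sites per transcript and fusion, limited to sites seen in both replicates, with sites of endogenous editing and of the control fusion already taken out. They give no library-level value, site position, editing level or coverage. The fusions cannot be told apart from their sequencing runs. Cell identity was not set against marker genes because the tables hold no expression levels.

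Oxidative phosphorylation passes electrons from NADH and succinate through complexes I to IV of the inner mitochondrial membrane, and the proton gradient drives ATP synthase. A few core subunits are encoded in mitochondrial DNA and made on the mitochondrial ribosome. The many remaining subunits, all mitoribosomal proteins, the TOM and TIM import machinery and the SLC25 carriers come from nuclear genes, whose transcripts are spliced in the nucleus. Cells such as 293T express most of these genes as housekeeping genes.

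The 35 genes carried 32 sites in the transcript body with GPATCH8-ADAR (4.02% of 797 sites, 95% exact binomial interval 2.76 to 5.62) and 48 with ADAR-SUGP1 (3.53% of 1358 sites, 2.62 to 4.66). The transcript body is the sum of 5′ UTR, coding sequence, 3′ UTR and introns. Such intervals cover counting error only, and sites in the same gene are not independent. Complex I subunits held the most sites of the role groups with each fusion, 10 and 15 respectively, though these groups differ in size. Most of these sites lay in NDUFV3 (7 with GPATCH8-ADAR and 5 with ADAR-SUGP1) and NDUFS1 (2 and 5). Of all protein-coding nuclear genes in RefSeq, 2.42% were listed with GPATCH8-ADAR and 4.83% with ADAR-SUGP1. Of the 267 RefSeq genes that the symbol rule covers, 5.62% and 10.1% were listed. These 267 include POLG2 and SPG7, chosen by name, and DMAC2L, which is counted only because its old symbol ATP5S was listed. Many RefSeq genes are not transcribed in this line, and whether expression sets this gap was not tested.

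**Figure D1:**
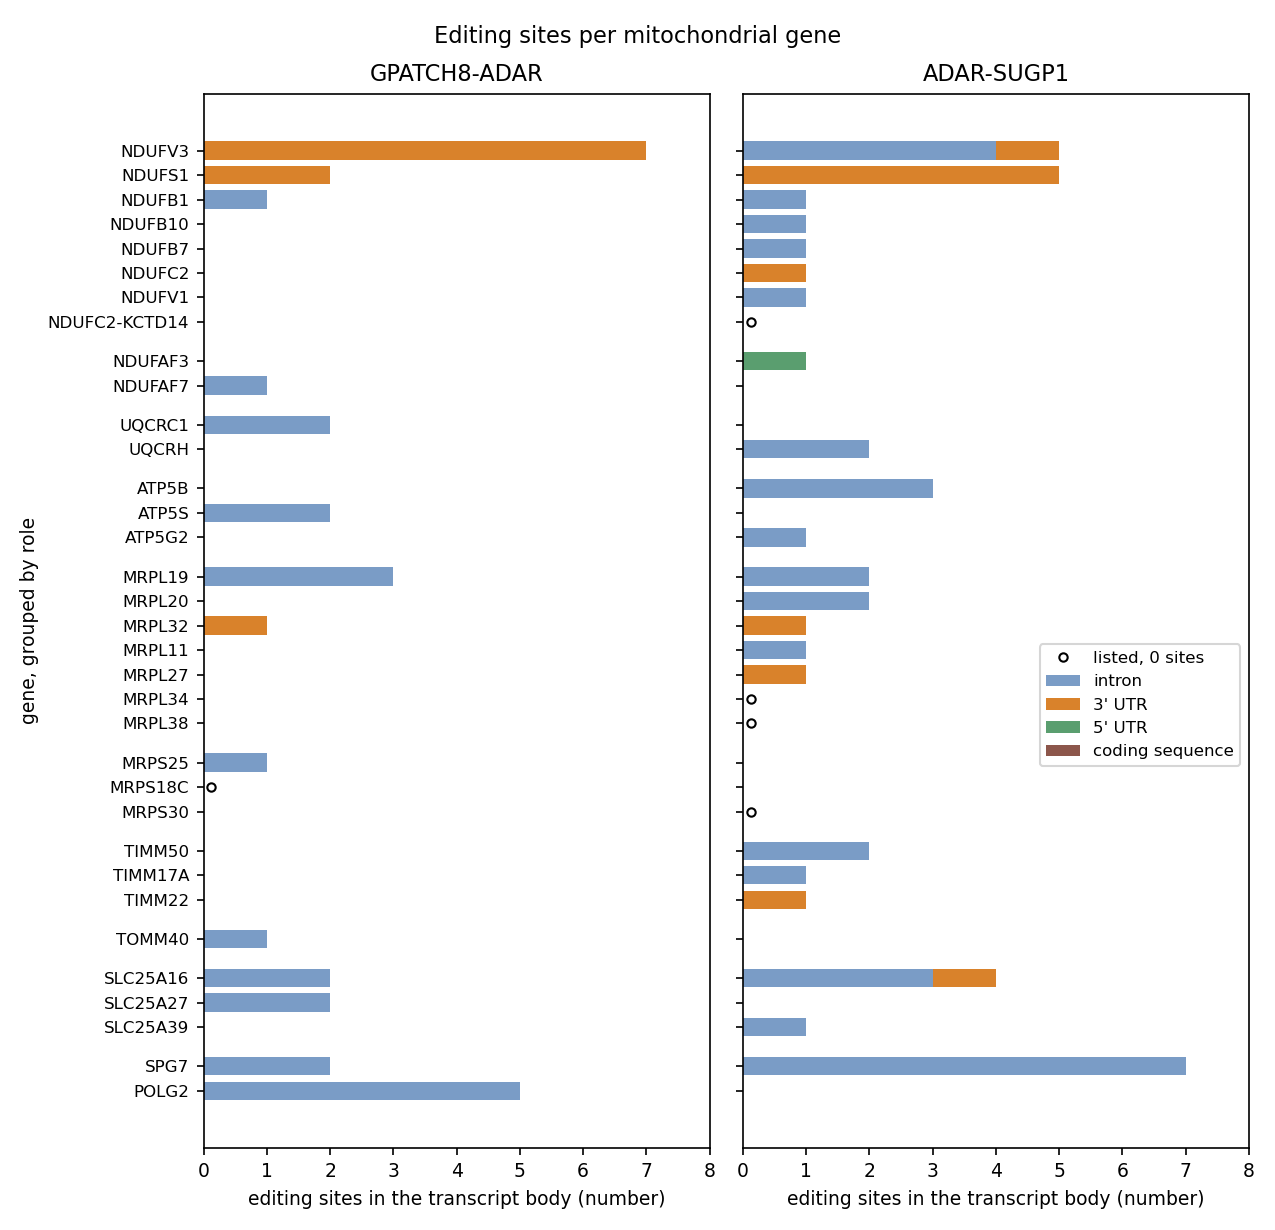
Editing sites in the transcript body (horizontal axis, number of sites) for 34 of the 35 genes, grouped by role, with GPATCH8-ADAR on the left and ADAR-SUGP1 on the right. Colours give the region, and an open circle marks a gene listed with 0 sites. NDUFV3 has 7 sites in a 3′ UTR on the left and 4 intronic sites plus 1 in a 3′ UTR on the right, and SPG7 has 7 intronic sites on the right.

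Complex I, the NADH dehydrogenase that opens the chain, was represented by 3 listed subunit genes on the GPATCH8-ADAR list and 8 on the ADAR-SUGP1 list, of 38 in RefSeq (7.89% and 21.1%, a readthrough entry included). All 3 of the former were also on the ADAR-SUGP1 list. NDUFV3, an accessory subunit of the NADH-binding module, had 7 sites with GPATCH8-ADAR, all in the 3′ UTR of transcript ENST00000340344.4. With ADAR-SUGP1 that 3′ UTR had 1 site, and another transcript of the gene, ENST00000460259.1, had 4 sites in introns. A base that is intronic in one transcript can be exonic in another, and without positions it cannot be told how far these sites lay from each other. Over the 155 shared genes with body sites in both lists, the division between 3′ UTR and other regions was compared by fusion with Fisher's exact test. NDUFV3 had the lowest p of the 155 (exact p = 0.0101, adjusted p = 1.00), and was the only gene with an unadjusted p under 0.05 (0.645% of the 155). This comparison was chosen after the counts had been seen.

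NDUFS1, the large iron-sulfur core subunit of the same module, had 3′ UTR sites alone, 2 with GPATCH8-ADAR and 5 with ADAR-SUGP1, on the same transcript ENST00000233190.6. NDUFB1, an accessory subunit of the membrane arm, had 1 intronic site with each fusion, both on ENST00000553514.1. The other listed subunits appeared with ADAR-SUGP1 only. Among them NDUFV1, the core subunit that binds NADH and flavin, and the membrane-arm subunits NDUFB7 and NDUFB10 had 1 intronic site each. NDUFC2 had 1 site in its 3′ UTR. NDUFC2-KCTD14, a readthrough entry that joins NDUFC2 to its neighbour KCTD14, was listed with 0 sites, and reads of the shared exons cannot be told apart between both entries. Of the assembly factors, NDUFAF7, a methyltransferase, had 1 intronic site with GPATCH8-ADAR, and NDUFAF3 had 1 site in a 5′ UTR with ADAR-SUGP1.

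Complex III, which passes electrons from ubiquinol to cytochrome c, had 1 gene on each list. UQCRC1, a core subunit, had 2 intronic sites with GPATCH8-ADAR, and UQCRH, the hinge subunit next to cytochrome c1, had 2 intronic sites with ADAR-SUGP1. Of the ATP synthase names, ATP5S (current symbol DMAC2L), named for a coupling factor of the enzyme, had 2 intronic sites with GPATCH8-ADAR. The catalytic beta subunit ATP5B (current symbol ATP5F1B) had 3 and the c-ring subunit ATP5G2 (current symbol ATP5MC2) had 1, all intronic, with ADAR-SUGP1. No SDH gene (complex II and its assembly factors, 0 of 8, which allows a share of up to 37.5%) and no nuclear COX gene (complex IV and its assembly factors, 0 of 29, up to 10.3%) was listed with either fusion. CYC1, the cytochrome c1 gene of complex III, was not listed either. The listed share of all RefSeq genes lies below those limits with both fusions, so the absence of these groups is not distinguished from the general rate of listing.

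**Figure D2:**
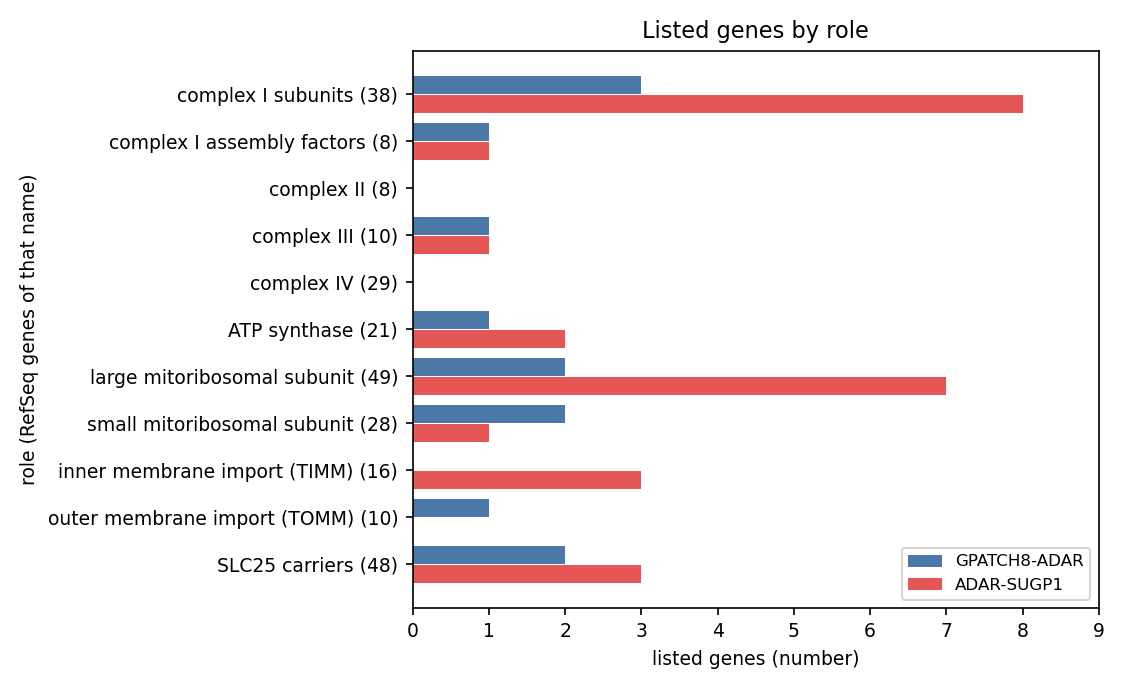
Number of listed genes (horizontal axis) by role, in blue for GPATCH8-ADAR and red for ADAR-SUGP1, with the number of RefSeq genes of that role in parentheses. Complex I subunits (8 genes) and the large mitoribosomal subunit (7 genes) lead with ADAR-SUGP1, while complexes II and IV have no listed gene.

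Of 49 genes for the large subunit of the mitochondrial ribosome, GPATCH8-ADAR listed 2 and ADAR-SUGP1 listed 7, and both of the former were shared. MRPL19 had 3 and 2 intronic sites on the same transcript, ENST00000358788.6. MRPL32 had 1 site in the 3′ UTR of ENST00000432845.1 with each fusion. Its stop-codon column, which is counted apart from the body, also held 1 with each. That count was on ENST00000432845.1 with GPATCH8-ADAR and on ENST00000413995.1 with ADAR-SUGP1. Without positions it cannot be told whether it is the same site as the one in the 3′ UTR. With ADAR-SUGP1 alone, MRPL20 had 2 intronic sites, MRPL11 had 1, and MRPL27 had 1 in a 3′ UTR and 1 counted at a stop codon, possibly the same site. MRPL34 and MRPL38 were listed with 0 sites. The small subunit contributed MRPS25 with 1 intronic site and MRPS18C with 0 on the GPATCH8-ADAR list, and MRPS30 with 0 on the ADAR-SUGP1 list, of 28 genes.

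None of the 4 listed import genes was on both lists, where 10.8% of all listed protein-coding genes were. With ADAR-SUGP1 there were 3 of 16 TIMM genes: TIMM50, the presequence receptor of the TIM23 translocase, had 2 intronic sites. TIMM17A, a subunit of the same translocase, had 1 intronic site, and TIMM22, the core of the carrier translocase, had 1 in its 3′ UTR. With GPATCH8-ADAR only TOMM40, the channel of the outer membrane, was listed, with 1 intronic site. The import lists are too short to read a difference between fusions, and none was tested.

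The SLC25 carriers, which move metabolites across the inner membrane, numbered 2 and 3 of 48. SLC25A16 was shared, with 2 intronic sites with GPATCH8-ADAR and 3 intronic plus 1 in the 3′ UTR with ADAR-SUGP1, on 1 transcript, ENST00000609923.1. SLC25A27, an uncoupling protein homologue, had 2 intronic sites with GPATCH8-ADAR. SLC25A39, a glutathione carrier, had 1 intronic site with ADAR-SUGP1. No member row held a promoter site with either fusion.

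POLG2 and SPG7, chosen by name, are not respiratory subunits. POLG2, the accessory subunit of the mitochondrial DNA polymerase, had 5 intronic sites of ENST00000539111.2 with GPATCH8-ADAR and was absent from the ADAR-SUGP1 list. SPG7, paraplegin, a subunit of the inner-membrane m-AAA protease that also processes MRPL32, had 2 intronic sites with GPATCH8-ADAR, and 7 such sites with ADAR-SUGP1. Of these, 2 and 1 lay in introns of ENST00000566371.1, and 6 with ADAR-SUGP1 lay in introns of ENST00000268704.2, which the GPATCH8-ADAR list did not hold. Intronic sites require unspliced or partly spliced RNA, or excised introns, to be present in the sequenced total RNA.

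Each gene's sites were compared between the fusions against all other sites (two-sided Fisher's exact test, adjusted over 1513 genes by Benjamini-Hochberg). No gene passed an adjusted p under 0.05 (0% of all genes), and 20 genes (1.32%) had an unadjusted p under 0.05. POLG2 was the only one of the 35 among those 20. Its sites made up 0.627% of all GPATCH8-ADAR sites and 0% of the ADAR-SUGP1 sites (Fisher's exact test, unadjusted p = 0.00686, adjusted p = 1.00). For NDUFV3 the shares were 0.878% and 0.368% (Fisher's exact test, unadjusted p = 0.141, adjusted p = 1.00). For SPG7 they were 0.251% and 0.515% (same exact test, unadjusted p = 0.499, adjusted p = 1.00). The most uneven of the 1513 genes, NUP205 with 8 GPATCH8-ADAR sites against 0, had an adjusted p of 0.518 (Fisher's exact test). At counts this small the test could hardly call any gene, so the absence of calls does not show that the counts are alike. The test compares lists of sites, not libraries.

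Most sites of the 35 genes were intronic. With GPATCH8-ADAR, 22 of 32 sites (68.8%, exact 95% interval 50 to 83.9) lay in introns and 10 (31.2%, 16.1 to 50) in 3′ UTRs. Among other protein-coding genes these shares were 77.6% and 18.7%. The 3′ UTR share rested on NDUFV3: without it, 3 of 25 sites (12%) lay in 3′ UTRs and 88.0% in introns. With ADAR-SUGP1, 34 of 48 sites (70.8%, 55.9 to 83.0) were intronic and 11 (22.9%, 12 to 37.3) in 3′ UTRs, against 66.4% and 16.6% in other protein-coding genes. Counted by gene, 3 of 15 members had a 3′ UTR site with GPATCH8-ADAR (20%, against 20.3% of all protein-coding genes on that list). With ADAR-SUGP1 it was 7 of 27 (25.9%, exact 95% interval 11.1 to 46.3, which includes the 17.8% of that list). An intronic site was present in 11 of 15 members (73.3%, against 74.3%) and in 17 of 27 (63.0%, against 63.1%). The intronic shares and the GPATCH8-ADAR share of genes with a 3′ UTR site lie near those of the whole lists.

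Coding sequence held no site in any of the 35 genes with either fusion. With GPATCH8-ADAR this was 0 of 32 sites, which allows a share of up to 9.38%, where other protein-coding genes had 2.43%, so a difference was not detectable. With ADAR-SUGP1 it was 0 of 48 sites (up to 6.25%, exact 95% interval 0 to 7.40), where other protein-coding genes had 141 of 1204 (11.7%, 9.95 to 13.7). By gene, 0 of 15 and 0 of 27 members had a coding site, against 3.01% and 12.9% of all protein-coding genes on the lists. For 27 genes a count of 0 allows a share of up to 11.1%. The exact 95% interval for these genes, 0 to 12.8, overlaps the 10.8 to 15.1 of all protein-coding genes with ADAR-SUGP1. Moreover, 4 of the 27 had no body site at all. The intervals over sites do not overlap with ADAR-SUGP1, but they take sites as independent, and no test of the group against other genes was made because the members were proposed with these tables known.

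**Figure D3:**
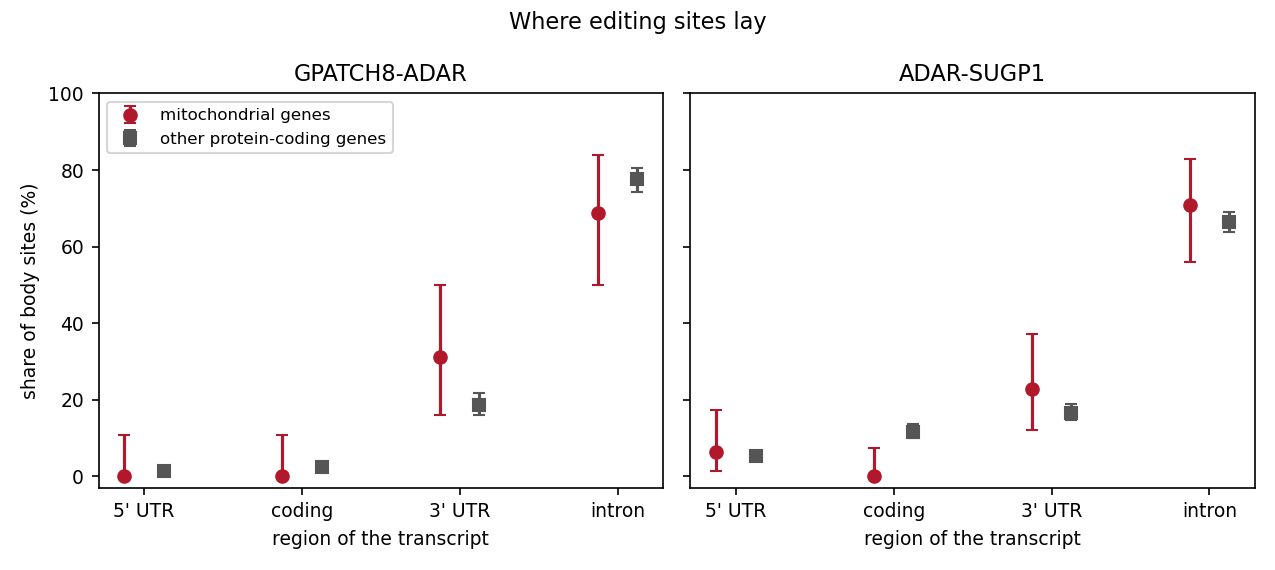
Share of transcript-body sites (vertical axis, %) by region for the mitochondrial genes (red circles) and other protein-coding genes (grey squares), with exact 95% binomial intervals as bars. Coding sites are at 0 in the mitochondrial genes in both panels, against 11.7% in other genes with ADAR-SUGP1, while introns hold 68.8% and 70.8% of their sites.

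A larger share of members than of all listed protein-coding genes had several sites with each fusion, a difference that was not tested. With GPATCH8-ADAR, 9 of 15 had at least 2 body sites (60.0%, exact 95% interval 32.3 to 83.7), against 29.5% of all protein-coding genes listed. They were NDUFV3, POLG2, MRPL19, NDUFS1, ATP5S, SLC25A27, UQCRC1, SPG7 and SLC25A16. With ADAR-SUGP1 it was 10 of 27 (37.0%, 19.4 to 57.6), against 19.9%, which that interval includes. Among the 10 were SPG7, NDUFS1, NDUFV3, SLC25A16, ATP5B, UQCRH, TIMM50, MRPL20 and MRPL19. The mean was 2.13 ± 1.77 sites per member (SD over genes, n = 15, median 2) with GPATCH8-ADAR and 1.45 ± 0.974 (n = 483, median 1) in other protein-coding genes. With ADAR-SUGP1 it was 1.78 ± 1.72 (n = 27, median 1) and 1.24 ± 0.692 (n = 968, median 1). At least 5 sites were present in 2 of 15 members with GPATCH8-ADAR, NDUFV3 and POLG2 (13.3%, against 2.41% of all protein-coding genes on that list). With ADAR-SUGP1 they were present in 3 of 27, SPG7, NDUFS1 and NDUFV3 (11.1%, against 0.804%). POLG2 and SPG7 were chosen by name, with these data known, so these shares partly reflect that choice. Without assembly factors, ATP5S and the genes chosen by name, 6 of 11 members (54.5%) with GPATCH8-ADAR had at least 2 sites. With ADAR-SUGP1 it was 9 of 25 (36.0%). How far expression, intron length or read depth of these genes sets their counts was not tested.

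The lists shared 7 of the 35 genes (20%, exact 95% interval 8.44 to 36.9), against 10.8% of all 1348 protein-coding genes listed with either fusion. They were NDUFV3, NDUFS1, NDUFB1, MRPL19, MRPL32, SLC25A16 and SPG7. This is 46.7% of the 15 members with GPATCH8-ADAR and 25.9% of the 27 with ADAR-SUGP1, where other protein-coding genes had 28.6% and 14.3%. The exact 95% interval of 21.3 to 73.4 around 46.7% includes 28.6%, and that of 11.1 to 46.3 around 25.9% includes 14.3%. All 7 had an identical transcript on both lists, as did 149 of all 162 shared genes (92.0%). In 6 of the 7 the main region was also the same, intron for 4 and 3′ UTR for NDUFS1 and MRPL32, and NDUFV3 was the exception. Over all shared genes with body sites in both lists the main region was the same in 135 of 155.

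**Figure D4:**
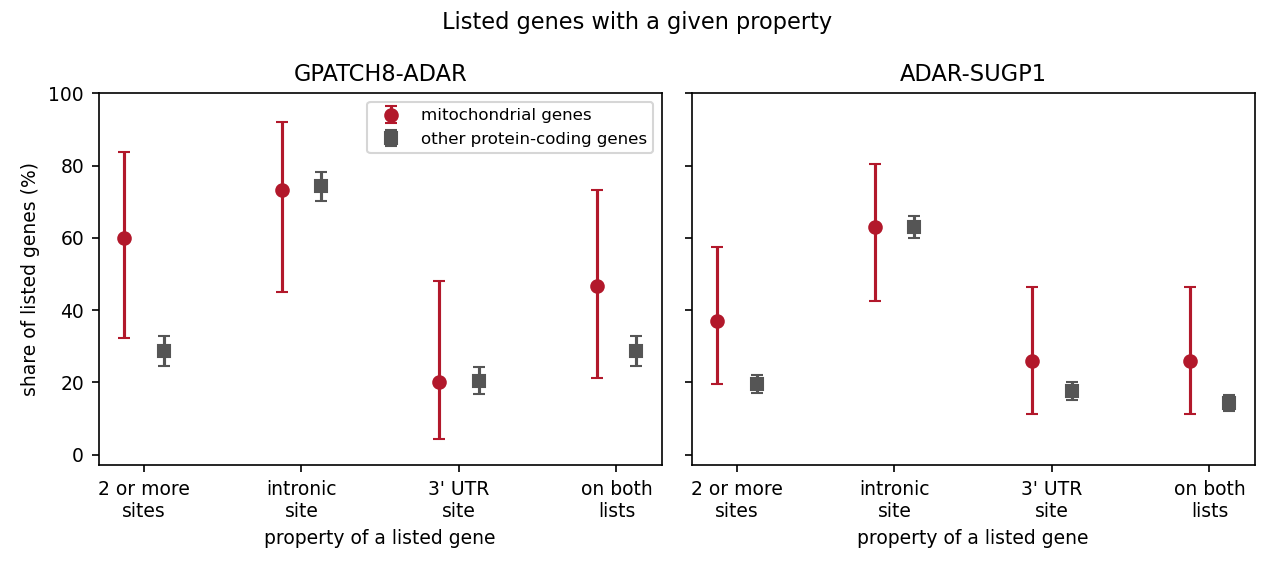
Share of listed genes (vertical axis, %) with at least 2 body sites, with an intronic site, with a 3′ UTR site, or also on the other fusion's list, for the mitochondrial genes (red circles) and other protein-coding genes (grey squares), with exact 95% binomial intervals. Intronic shares nearly coincide (73.3% and 63.0% of the mitochondrial genes), and 60.0% of the mitochondrial genes with GPATCH8-ADAR had at least 2 sites.

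A gene could be listed with no site in the transcript body. This applied to 1 of 15 members with GPATCH8-ADAR (6.67%, against 2.21% of all protein-coding genes) and to 4 of 27 with ADAR-SUGP1 (14.8%, against 3.52%). They were MRPS18C in the former list and MRPS30, MRPL34, MRPL38 and NDUFC2-KCTD14 in the latter. Their promoter and stop-codon columns were at 0 too.

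Mitochondrial genes outside the symbol rule were followed in 12 further lists with 271 genes in all. GPATCH8-ADAR listed 21 of them (7.75%) with 27 body sites and ADAR-SUGP1 24 (8.86%) with 29, against 2.42% and 4.83% of all RefSeq genes, with the same limit of expression as above. Of the 40 listed with either fusion, 5 were shared (12.5%, against 10.8%). The counts of each list below are small, and none was tested. The shared genes were PNPT1, TEFM, VARS2, XPNPEP3 and VDAC1. In mitochondrial DNA maintenance and transcription, 4 and 8 of 34 genes were listed. POLG, the catalytic partner of POLG2, had 2 intronic sites with ADAR-SUGP1 and was not listed with GPATCH8-ADAR, the reverse of POLG2. The transcription factor TFAM, the polymerase POLRMT and the single-strand binding protein SSBP1 had 1 intronic site each with ADAR-SUGP1, and the elongation factor TEFM had 1 with each fusion. Genes of mitochondrial dynamics and cristae numbered 3 and 0 of 25. The kinase PINK1 had 3 intronic sites with GPATCH8-ADAR, the fission GTPase DNM1L had 2, and MTFR1 had 1. LYRM7, an assembly factor of complex III, had 4 sites in its 3′ UTR with ADAR-SUGP1. CYCS, cytochrome c itself, had 1 in its 3′ UTR with GPATCH8-ADAR.

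Of the remaining lists, iron-sulfur and haem genes numbered 3 and 1 of 24, among them ALAS1, which starts haem synthesis, with 2 intronic sites, and IBA57 with 2 in its 3′ UTR, both with GPATCH8-ADAR. Translation factors and tRNA synthetases numbered 2 and 3 of 34, with VARS2 at 1 and 2 intronic sites. Proteases and chaperones numbered 2 and 4 of 19, outer-membrane channels and calcium uptake 2 and 3 of 15, and the citrate cycle list 0 and 2 of 32. Import helpers (1 and 0 of 18), fatty acid oxidation (1 and 0 of 20), coenzyme Q and cytochrome c (1 and 1 of 15), other assembly factors (1 and 1 of 23) and other mitoribosome genes (1 and 1 of 14) had few entries. Coding sites on these lists were 3 of 29 with ADAR-SUGP1 (10.3%, against 11.3% over all listed protein-coding genes), 1 each in TFB1M, DAP3 and PC. With GPATCH8-ADAR there was 1 of 27 (3.70%, against 2.32%), in ECSIT. The difference from the 35 genes was not tested.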

How the data were processed

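For each fusion the authors deposited a table whose values are numbers of editing sites, not of reads, for Ensembl transcripts. Per the file headers, intron, 5′ UTR, 3′ UTR, coding, promoter and stop-codon sites have a column each, beside a total. The submitters' processing notes name Trimmomatic, STAR and hg19. How sites were called, with which thresholds and annotation, and whether strand was used is not given in the sources used here. Requiring a site in both replicates favours deeply read transcripts, and the depth per site is unknown. The 572 blank rows of the GPATCH8-ADAR table were skipped.

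Counts were summed over a gene's transcripts, which takes each site as counted once. Old symbols were updated through a RefSeq gene table of assembly GRCh38.p14 (32 of 35 members current, 3 matched as synonyms), used for names and gene order only. Fisher's exact test with Benjamini-Hochberg adjustment was run over all listed genes (Python 3.11.15, scipy 1.17.1). A check on simulated data required true calls only with many times more sites than these data hold. At the real number of sites it only limited false calls, so it does not show power here. Intervals are exact binomial (Clopper-Pearson, 95%), and a count of 0 allows 3 counts of the total. The members, lists and tests were chosen with earlier results of these data known. Every member is named with its counts, except 1 gene that is not reported here but enters the totals. Alternatives were the transcript with the most sites per gene, at least 1 body site, at least 2 sites, a narrower rule, leaving out the member with the most sites, and an exact binomial test. The labels do not say whether replicates were separate cultures.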

Additional observations from a re-analysis of the deposited data

How the results depend on the processing

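Of 51 values recomputed under other settings, 47 kept within their interval or within 1.5 times their count. Part of the 47 could not change: a coding share of 0 stays at 0 in any smaller set of these members. The tally therefore overstates stability. Requiring at least 2 sites per gene left 9 members with GPATCH8-ADAR and 10 with ADAR-SUGP1. Without the member with the most sites, the GPATCH8-ADAR shares became 88.0% for introns and 12% for 3′ UTRs, because NDUFV3 holds 7 of the 10 sites in 3′ UTRs. The per-gene comparison (Fisher's exact test, or the exact binomial test) called 0 genes under each setting, with 18 to 20 genes at an unadjusted p under 0.05 and a lowest adjusted p between 0.486 and 0.659. Site counts this small leave the test little power, so the absence of calls is no sign of stability. POLG2 was the only member at an unadjusted p under 0.05 in each (exact p from 0.00686 to 0.0188). No paired analysis was possible because each table holds a single count for both replicates together, and for the same reason leaving out a replicate was not run. Read depth per site is unknown, so a gene off a list may be unedited or too thinly read.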

Other observations

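Some members lie next to another listed gene in the order of RefSeq protein-coding genes. With ADAR-SUGP1 this applied to 8 of 27 members (29.6%), against 20% of 970 listed genes that could be placed. ATP5B lies beside PTGES3 (3 sites each), MRPL19 beside GCFC2, MRPL20 beside CCNL2, MRPL27 beside EME1, NDUFB10 beside the ribosomal protein gene RPS2, and NDUFV1 beside GSTP1. With GPATCH8-ADAR it was 1 of 15 (6.67%), against 9.28% of 485.

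Of the 24 genes listed with 0 in every column with GPATCH8-ADAR, 6 were placed in that order, and 5 of the 6 (83.3%) had a listed neighbour. With ADAR-SUGP1, 16 of 49 were placed, and 13 of the 16 (81.2%) had such a neighbour. The unplaced genes were not examined. Of the placed mitochondrial genes, MRPS18C lies beside FAM175A (current symbol ABRAXAS1, 3 sites), MRPL34 beside ABHD8 (1 site), and MRPL38 between TRIM65 and FBF1 (1 site each). MRPS30 and NDUFC2-KCTD14 had none by this order. NDUFC2, which the readthrough entry NDUFC2-KCTD14 includes, was on the same list with 1 site, but it was not counted as a neighbour here. The pattern was noticed after the counts were seen, and whether a site was assigned to more than one gene was not tested, since the tables carry no positions.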
